A study of Mus musculus with 6 samples.

Results

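The nuclear-encoded subunits of oxidative phosphorylation were examined in the retina of mice at postnatal day 4 (P4). Members were the probe sets named for a gene whose symbol starts with Nduf (followed by a, b, c, s or v and a digit), Uqcr, Cox4 to Cox8 or Atp5. They comprised 140 of 22690 probe sets and 74 of the 12393 genes named by 1 symbol, namely 32 genes of complex I, 8 of complex III, 17 of complex IV and 17 of complex V. Ndufa4 was counted with complex IV, to which it was later assigned. A further 7 probe sets that carried several symbols, a member's among them, were not used.

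RNA was compared between 3 Nhlh2 knockout retinas (KO1, KO2 and KO3) and 3 wildtype retinas (WT1, WT2 and WT3), all P4 and all of a mixed C57/129 background, with 1 Affymetrix mouse GeneChip array per sample. A knockout and a wildtype with the same number were littermates, so that litter 3 comprises KO3 and WT3. The sources used here do not give the knockout allele, nor whether a sample was 1 retina or several. Nhlh2 itself was not analysed here, so the knockout labels were not checked against their target transcript.

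The deposited MAS 5.0 signals (1 brightness value per probe set and array, on a linear scale) had not been brought to 1 scale, and each array was scaled so that its 2% trimmed mean was 500. KO2 stood apart. Its scale factor was 19.5, against 1.86 to 2.94 for the other arrays. Its ratio of 3' to 5' Actb probe sets was 274, against 1.38 to 1.56, and its Spearman correlation with the other arrays was at most 0.67, against at least 0.95 among those. The comparisons of knockout and wildtype are therefore also given without it. The number of arrays limits the precision, and the p-values measure the spread between these samples. All 8 measured retina markers exceeded the array median in the 3 wildtype retinas. So did 6 of 8 pigment epithelium, 3 of 7 vessel and 1 of 18 striated muscle markers. Lens crystallin and membrane genes, at a summed signal of 301 to 1147 in the knockout retinas and 309 and 362 in WT2 and WT3, reached 19742 in WT1.

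Oxidative phosphorylation takes place in the inner mitochondrial membrane. Complexes I, III and IV pass electrons from NADH through ubiquinone and cytochrome c to oxygen and pump protons, and complex V, the ATP synthase, lets the protons return and makes ATP. Cytochrome b of complex III, the catalytic core of complex IV, much of the membrane arm of complex I and a part of complex V are encoded by mitochondrial DNA, whereas the subunits considered here come from nuclear genes. Several small subunits of complex IV have a ubiquitous isoform and a second one known from heart and skeletal muscle, lung or testis, and the ring subunit of complex V is made from 3 genes that encode the same mature protein. The retina is known for a high consumption of oxygen once its photoreceptors are mature, a stage not yet reached at P4.

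At P4 most subunits were among the brightest transcripts on the array. In the wildtype retinas 120 of the 140 probe sets exceeded the array median in all 3 arrays, compared with 45.5% of all probe sets, and 106 of them exceeded the 90th percentile in all 3, compared with 8.37% of all. With 1 probe set per gene (that with the highest mean log2 signal over all 6 arrays), 69 of 74 genes exceeded the median and 65 the 90th percentile in each wildtype array. Taking the brightest probe set raises such counts of genes, here and by complex below, and no share over all genes was taken in the same way. A brightness depends on its probes as well as on its transcript, so signals of different genes are described by their place on the array and not compared as amounts.

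Complex I takes electrons from NADH. The median of its 32 genes was a wildtype signal of 3032, and 30 of them exceeded the 90th percentile in all 3 wildtype retinas. Among the catalytic subunits, Ndufv1, the flavoprotein that binds NADH, had signals of 2092, 11599 and 2413 in the knockout retinas and 2165, 2087 and 2592 in the wildtype retinas. Ndufs7, an iron-sulphur subunit next to the ubiquinone site, had 2240.1, 12565 and 3697 in the knockout retinas and 1868, 2176 and 3224 in the wildtype retinas. KO3 exceeded KO1, and WT3 exceeded both WT1 and WT2, for these 2 subunits. Ndufs1, the largest iron-sulphur subunit, had 1442, 11.7 and 1301 in the knockout retinas and 1375, 1423 and 1341 in the wildtype retinas, so that 5 arrays lay within a narrow range and KO2 far below it. The brightest gene of complex I was Ndufa1, a small accessory subunit, with 6969, 10062 and 9535 in the knockout retinas and 7837, 7111 and 11609.5 in the wildtype retinas, a wildtype mean of 8853 ± 2415 (SD, n = 3). The dimmest was Ndufb1, also an accessory subunit, at 256 ± 27.3 (SD, n = 3), still above the median in each wildtype array. Its individual signals were 303, 44.8 and 326 in the knockout retinas and 235, 287 and 247 in the wildtype retinas, and KO1 and KO3 lay above all 3 wildtype values.

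Complex III transfers electrons from ubiquinol to cytochrome c. Its 8 genes had a median wildtype signal of 2841 and all of them exceeded the 90th percentile in each wildtype array. Uqcrb, a small subunit near the ubiquinone site, was the brightest of all 74 genes with 14313, 15977 and 19662 in the knockout retinas and 14552, 12370.0 and 15673 in the wildtype retinas, a wildtype mean of 14198 ± 1679.7 (SD, n = 3). The lowest was Uqcr10, with 1875, 3095 and 2923 in the knockout retinas and 2213, 1985 and 1944 in the wildtype retinas, a wildtype mean of 2047 ± 145 (SD, n = 3). Litter 3 gave the highest wildtype value of Uqcrb and the lowest of Uqcr10. Uqcrfs1, the Rieske iron-sulphur protein that carries the electrons onward, had 3211, 401 and 3162 in the knockout retinas and 2753, 2934 and 3075 in the wildtype retinas. These are close to each other except in KO2. Uqcrc1, one of the 2 large core proteins, had 2563, 2684 and 2780.0 in the knockout retinas and 2556, 2481 and 3245 in the wildtype retinas, a range in which the groups overlap.

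Complex V, the ATP synthase, had a median wildtype signal of 5673 over 17 genes, and all 17 exceeded the 90th percentile in each wildtype array. Atp5b, the catalytic beta subunit, had 8290.0, 1237 and 9322 in the knockout retinas and 8843, 8450.3 and 9705 in the wildtype retinas. Apart from KO2, WT3 was the highest of these and KO1 the lowest. Atp5a1, the alpha subunit with which it alternates in the F1 head, had 4511, 10911 and 3325 in the knockout retinas and 4706, 4306 and 3795 in the wildtype retinas on the probe set chosen by its mean in the 6 arrays, and here KO3 and WT3 were the lowest of their groups. Another of its probe sets had 6617, 1338 and 4863 in the knockout retinas and 6334, 6309 and 4991 in the wildtype retinas, higher than the first in every array but KO2, and litter 3 was again the lowest in both genotypes apart from KO2. The 3 genes for the c subunit of the rotor ring were all bright. Atp5g3, the brightest of complex V, had 9676, 11244 and 12153 in the knockout retinas and 9779, 9434 and 18319.6 in the wildtype retinas, with WT3 far above the other wildtype retinas. Atp5g2 had 5604, 1513 and 8501 in the knockout retinas and 5894, 5062 and 6445 in the wildtype retinas. Atp5g1, the dimmest gene of complex V by wildtype mean, had 2107, 892 and 3094 in the knockout retinas and 1971, 1986 and 2424 in the wildtype retinas. The wildtype means were 12511 ± 5034, 5800.4 ± 697 and 2127 ± 258 (SD, n = 3) for Atp5g3, Atp5g2 and Atp5g1, and none of the 3 fell below the array median in any array.

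**Figure D1:**
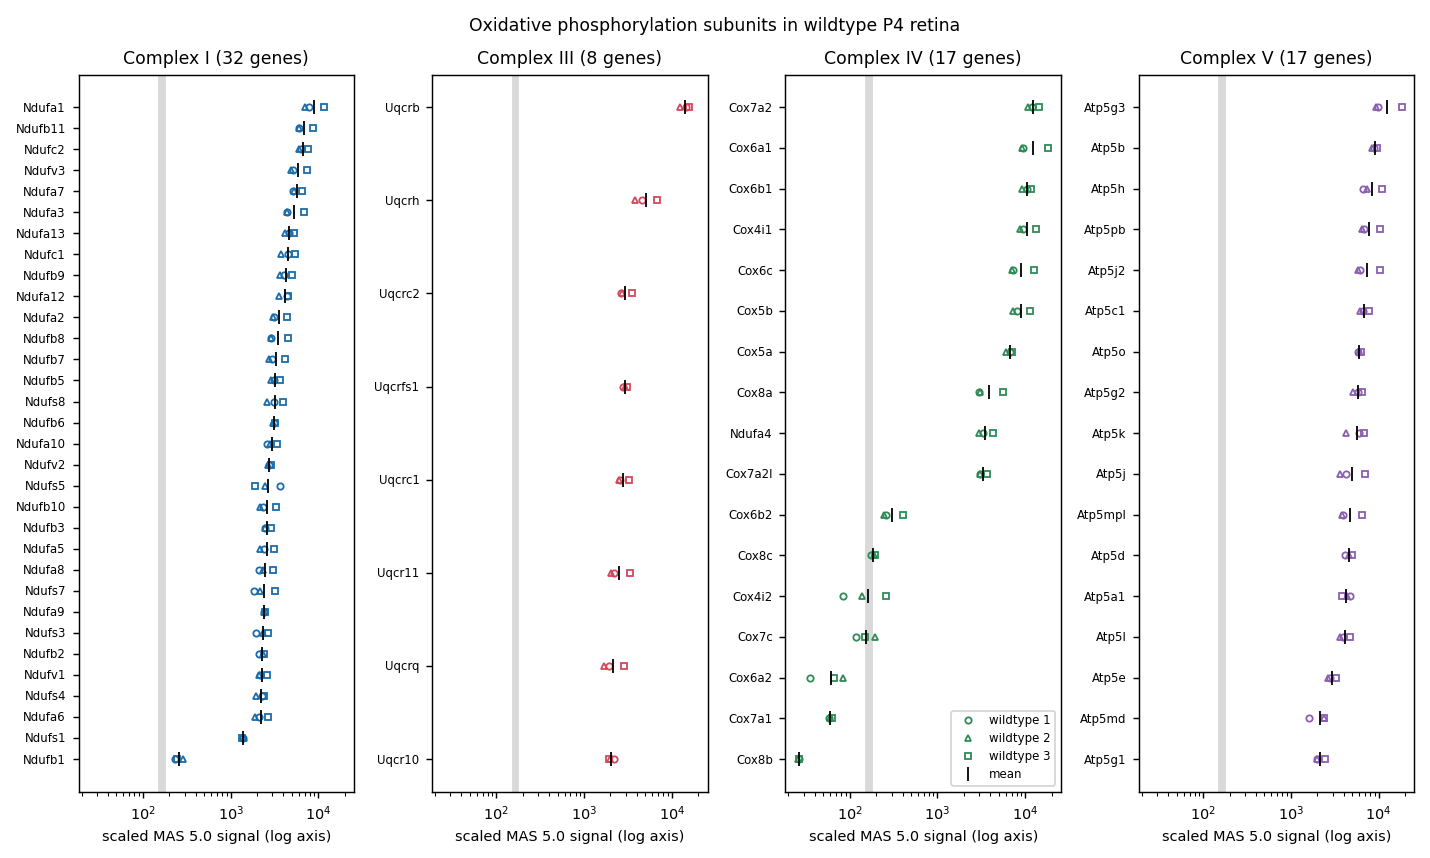
Scaled MAS 5.0 signal (log axis) of 74 oxidative phosphorylation genes in the 3 wildtype P4 retinas, 1 probe set per gene, by complex; open symbols are single arrays, the black bar is their mean and the grey band spans the array medians. Complex V lies wholly to the right of the band, and WT3 (squares) is the rightmost symbol for most genes. Complex IV holds the 5 genes that do not exceed the array's own median in all 3 arrays.

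Complex IV, cytochrome c oxidase, divided by isoform. Its 11 ubiquitous genes had a median wildtype signal of 8916, and its 6 tissue isoforms a median of 111, below the array medians of 153 to 178. Of the tissue isoforms 2 of 6, Cox6b2 and Cox8c, exceeded the median in all 3 wildtype arrays and none exceeded the 90th percentile, whereas 10 of the 11 ubiquitous genes exceeded the 90th percentile in all 3. Cox5a, which is among the first nuclear subunits to join during assembly, had 6285, 18977 and 7280.3 in the knockout retinas and 6766, 5994 and 7158 in the wildtype retinas. Cox5b, which binds zinc, had 7936, 23709.7 and 10289.8 in the knockout retinas and 8066, 7213 and 11469.7 in the wildtype retinas on its brightest probe set. The lowest percentile either reached in a wildtype array was 98.2 for Cox5a and 98.7 for Cox5b.

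The Cox4 family encodes the regulatory subunit to which ATP binds. Cox4i1, the ubiquitous form, had 8596, 21049 and 12128 in the knockout retinas and 9417, 8813 and 13155 in the wildtype retinas. Cox4i2, the form of lung and smooth muscle, had 103, 436 and 116 in the knockout retinas and 83.7, 138 and 261 in the wildtype retinas, and among the wildtype retinas only WT3 placed it above the array median. For the Cox6a pair, Cox6a1, the ubiquitous or liver type, had 8900.1, 33750.3 and 13564 in the knockout retinas and 9463, 9085 and 18406 in the wildtype retinas. Cox6a2, the form of heart and skeletal muscle, had 54.6, 173 and 94.5 in the knockout retinas and 35.1, 83.3 and 66.7 in the wildtype retinas, below the median in every array. Cox7a2, the ubiquitous or liver type and the brightest gene of complex IV, had 11489.5, 13005 and 16077 in the knockout retinas and 11952, 10823 and 14305 in the wildtype retinas. Its muscle counterpart Cox7a1 had 50.05, 236 and 85.6 in the knockout retinas and 57.9, 59.3 and 63.4 in the wildtype retinas, and was above the array median in KO2 alone.

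In the Cox6b family, whose product joins the monomers of the dimeric enzyme, Cox6b1 had 9900.0, 32636 and 14198 in the knockout retinas and 10584, 9194 and 11702 in the wildtype retinas. Cox6b2, known from testis, had 249.98, 314 and 507 in the knockout retinas and 262, 248 and 408 in the wildtype retinas, and was the brightest tissue isoform, at 306 ± 88.6 (SD, n = 3) in the wildtype retinas. In both genotypes the litter 3 array gave its highest value. In the Cox8 family, Cox8a, the ubiquitous form, had 3359, 436 and 4294 in the knockout retinas and 2987, 3037 and 5547 in the wildtype retinas. Cox8b, the muscle form, had 8.76, 42.9 and 3.24 in the knockout retinas and 26.5, 25.7 and 26.6 in the wildtype retinas and was the dimmest of all 74 genes. Cox8c, known from testis, had 181, 419 and 132 in the knockout retinas and 176, 188 and 194 in the wildtype retinas, close to the array median. The muscle forms were low in retinas where striated muscle markers were low too, and the dim values are near the background of the array, where MAS 5.0 signals carry little information on order.

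One ubiquitous subunit departed from this division. Cox7c, a small ubiquitous subunit, was represented by 2 probe sets, and the brighter of them had 142, 15.6 and 125 in the knockout retinas and 119, 192 and 149 in the wildtype retinas, at 154 ± 36.7 (SD, n = 3) in the wildtype retinas. Such a value can reflect the probes as much as the transcript. Of the 74 genes 40 had several probe sets. In 11 of these some probe sets exceeded the median in all 3 wildtype retinas and others did not. For Cox7c, which is not among the 11, neither probe set did so.

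**Figure D2:**
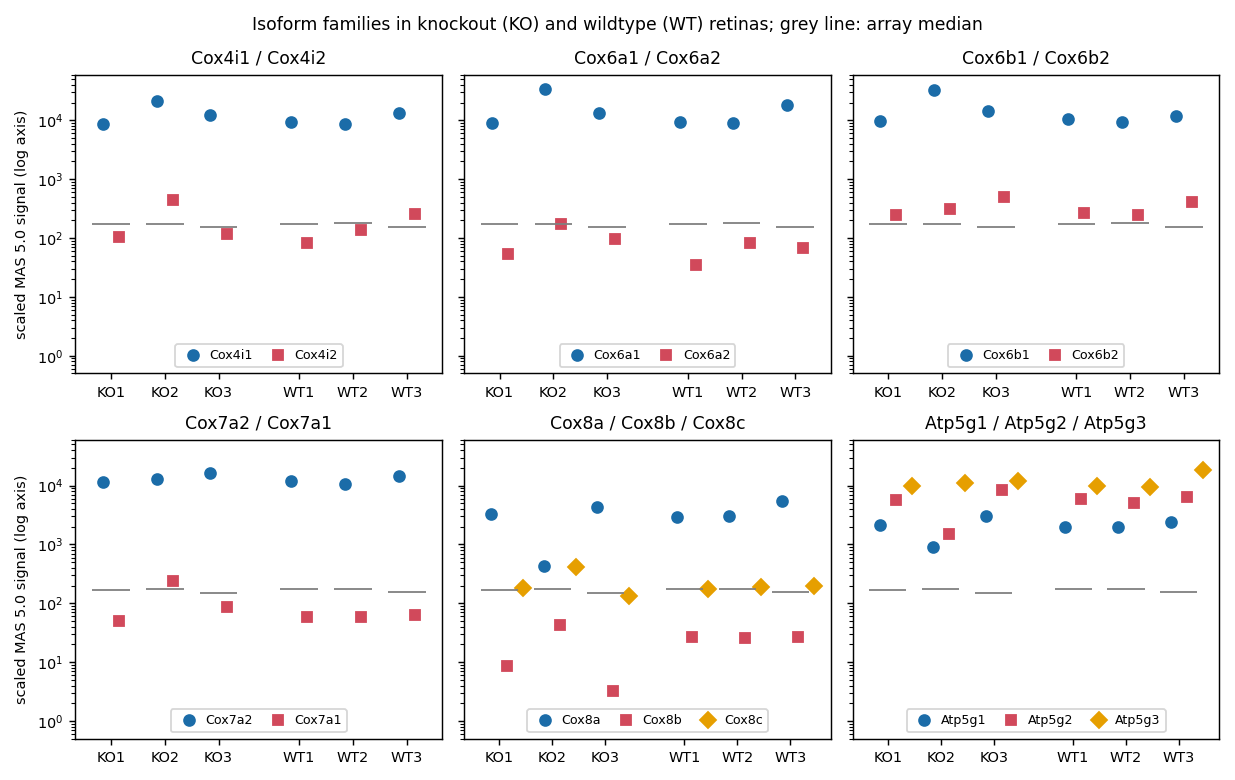
Scaled MAS 5.0 signal (log axis) of 5 families of complex IV isoforms and of the 3 c subunit genes of complex V in each knockout (KO, left) and wildtype (WT, right) array; the grey line is the median of all probe sets on that array. The ubiquitous forms lie far above the line except Cox8a in KO2, Cox6b2 lies above it in every array, the other tissue isoforms lie mostly near or below it, and all 3 Atp5g genes lie above it.

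Many respiratory genes are known to be controlled through sites for the transcription factors NRF1, GABP (of the ETS family) and YY1, and their promoter letters were therefore read. RefSeq sequence from 250 bases before to 50 bases after the transcription start was available for 61 of the 74 genes, and a gene was counted if any of its starts held the motif on either strand. The NRF1 core GCGCATGC occurred in 8 of 61 members (13.1%), and in 3.05% of all 27025 genes in the table. The ETS core CCGGAAG occurred in 15 of 61 (24.6%), and in 9.93% of all. The YY1 core AAGATGGC occurred in 9 of 61 (14.8%), and in 3.19% of all, whereas TATAAA, the core of the TATA box, occurred in 7 of 61 (11.5%) and in 15.7% of all. The ETS and YY1 cores can share the letters AAG, and GCGCATGC can overlap its own reverse complement, as in Atp5k. The windows of the members were also richer in CpG, with a median of 19 against 8 in all genes, and the motif shares were not adjusted for this. Of the tissue isoforms 3 were matched, and none held an NRF1, ETS or YY1 core, while 1 held TATAAA.

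The following stretches, 120 bases directly upstream of the start, show members picked for holding a core beside tissue isoforms and 3 other bright members without one in the stretch (GRCm38.p6, RefSeq, 5′ to 3′ on the gene's strand). Capitals mark an NRF1 core in Atp5k, the e subunit of complex V, and an ETS core in Uqcr11, Cox6a1 and Cox6b1. Uqcr11 is a small subunit of complex III.
Atp5k (chr5:108434400-108434519, minus strand): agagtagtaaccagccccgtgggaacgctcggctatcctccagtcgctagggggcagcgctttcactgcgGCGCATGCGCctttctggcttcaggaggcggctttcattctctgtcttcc
Uqcr11 (chr10:80406822-80406941, minus strand): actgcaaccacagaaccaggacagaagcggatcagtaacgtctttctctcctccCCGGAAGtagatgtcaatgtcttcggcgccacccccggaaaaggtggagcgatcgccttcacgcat
Cox6a1 (chr5:115348959-115349078, minus strand): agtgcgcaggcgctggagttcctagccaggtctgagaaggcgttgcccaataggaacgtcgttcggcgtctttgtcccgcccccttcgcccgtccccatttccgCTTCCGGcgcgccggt
Cox6b1 (chr7:30626115-30626234, minus strand): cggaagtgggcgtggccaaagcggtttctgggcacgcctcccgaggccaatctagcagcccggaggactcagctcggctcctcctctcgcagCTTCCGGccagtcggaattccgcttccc
Cox6b2 (chr7:4753095-4753214, minus strand): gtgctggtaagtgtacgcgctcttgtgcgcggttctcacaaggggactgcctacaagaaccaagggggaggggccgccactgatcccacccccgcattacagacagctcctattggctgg
Cox7a1 (chr7:30184051-30184170, plus strand): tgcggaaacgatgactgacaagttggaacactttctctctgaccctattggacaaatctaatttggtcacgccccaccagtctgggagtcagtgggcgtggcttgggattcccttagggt
Cox8b (chr7:140900447-140900566, minus strand): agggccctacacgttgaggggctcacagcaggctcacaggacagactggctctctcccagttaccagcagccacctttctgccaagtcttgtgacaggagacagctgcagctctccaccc
Atp5l (chr9:44920743-44920862, minus strand): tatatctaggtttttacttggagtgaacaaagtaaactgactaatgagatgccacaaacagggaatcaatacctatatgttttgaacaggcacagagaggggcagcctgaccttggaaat
Cox5b (chr1:36691367-36691486, plus strand): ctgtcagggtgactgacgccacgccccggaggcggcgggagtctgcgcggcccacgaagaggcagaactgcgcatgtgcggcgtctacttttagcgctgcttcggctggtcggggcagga
Cox7a2 (chr9:79759854-79759973, minus strand): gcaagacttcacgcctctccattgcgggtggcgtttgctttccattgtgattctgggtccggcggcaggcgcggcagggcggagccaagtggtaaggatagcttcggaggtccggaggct
In these stretches Cox6a1, Cox6b1, Uqcr11 and Atp5k hold 15, 11, 9 and 9 CpG, and Cox6b2, Cox7a1 and Cox8b hold 6, 4 and 1. Cox5b and Cox7a2 hold 14 and 10 CpG and no core, and Atp5l, the g subunit of complex V, holds 0 CpG and has its NRF1 and ETS cores elsewhere in the windows read. A match is a string of letters and not evidence that a factor was bound. Cox7a2, the brightest gene of complex IV, held none of the 4 motifs in its window.

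The wildtype retinas were not alike in these genes. For the comparisons across arrays a probe set was kept if it exceeded the array median in at least 3 of the 6 arrays, which left 123 member probe sets of 11645. WT3 exceeded the mean of WT1 and WT2 in 112 of the 123 (91.1%), compared with 45.9% of all probe sets, by a median of 0.39 on the log2 scale. Its knockout littermate KO3 exceeded KO1 in 114 of 123 (92.7%), compared with 47.3% of all, by a median of 0.48. Both together, WT3 above each of WT1 and WT2 and KO3 above KO1, held for 105 of 123 (85.4%), compared with 29.5% of all. The opposite, litter 3 lowest in both genotypes, held for 4 of 123, compared with 36.5% of all. WT1 and WT2 differed by a median of 0.06. KO2 entered none of these differences, but it was among the 6 arrays by which the probe sets were kept.

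The change extended over all 4 complexes. Counting 1 probe set per gene, WT3 exceeded the mean of WT1 and WT2 in 29 of 32 genes of complex I, 7 of 8 of complex III, 16 of 17 of complex IV and 16 of 17 of complex V. KO3 exceeded KO1 in 30, 7, 14 and 16 of these. Genes that did not pass the filter on low signals were included. Without the 6 tissue isoforms, 10 of 11 genes of complex IV were higher in WT3 and 10 in KO3. With the probe set of a gene chosen over the arrays other than KO2, complex I gave 28 and 30, and the other complexes did not change. The median difference of WT3 lay between 0.31 and 0.39 in the 4 complexes and that of KO3 between 0.39 and 0.51. The array median of the 74 gene signals was 4104 in KO3 against 3192 in KO1, and 4086 in WT3 against 3107 and 2996 in WT1 and WT2.

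Uqcrh, the hinge protein of complex III, illustrates the pattern with signals of 4068, 7423 and 5980.0 in the knockout retinas and 4628, 3772 and 6759.9 in the wildtype retinas. Atp5j, the F6 subunit of the peripheral stalk of complex V, had 4035, 353 and 6631 in the knockout retinas and 4224, 3673 and 6955 in the wildtype retinas. In both genes each litter 3 array lay above the other arrays apart from KO2, and the highest array of 5 was WT3. Among probe sets above the array median in all 3 wildtype retinas, the 3 most variable there were those for Ndufa12 and Ndufb11, accessory subunits of complex I, and for Cox8a, with SDs of 0.69, 0.67 and 0.60 on the log2 scale. One for Ndufa12 had 3072, 1889 and 4119 in the knockout retinas and 3093, 3064 and 7069 in the wildtype retinas. One for Ndufb11 had 3449, 2441 and 5908 in the knockout retinas and 3600.0, 3467 and 7859 in the wildtype retinas. In each case WT1 and WT2 were close together and WT3 lay well above them. The brightest probe set for Ndufb11 moved less, with 6073, 5993 and 8598 in WT1, WT2 and WT3. Over all 140 probe sets the largest wildtype SDs fell on dim probe sets, 1 each for Uqcrq, Cox8a and Atp5g2, that exceeded the median in none of the wildtype arrays. The widest, for Uqcrq, a small subunit of complex III, had 69.6, 25.3 and 80.1 in the knockout retinas and 54.1, 45.9 and 2.15 in the wildtype retinas. The dim Cox8a probe set had 22.3, 27.3 and 12.1 in the knockout retinas and 10.4, 45.7 and 52.2 in the wildtype retinas, and the dim Atp5g2 probe set had 43.5, 17.5 and 52.4 in the knockout retinas and 19.2, 74.0 and 55.4 in the wildtype retinas.

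The exceptions were few. The 4 probe sets with litter 3 lowest in both genotypes were those for Ndufs1, for Uqcrc2, the second core protein of complex III, and 2 for Atp5a1. The probe set for Uqcrc2 had 2678, 1266 and 2290.0 in the knockout retinas and 2766, 2950.5 and 2404 in the wildtype retinas, but a brighter one had 2623, 6599 and 3473 in the knockout retinas and 2623, 2676 and 3548 in the wildtype retinas, with litter 3 highest apart from KO2, so that the 2 probe sets of Uqcrc2 ran in opposite directions. The 2 probe sets for Atp5a1 are the same as those given with complex V. Ndufs5, an accessory subunit of complex I, fell outside both patterns with 2260.4, 532 and 2854 in the knockout retinas and 3617, 2468 and 1910.0 in the wildtype retinas, where WT3 was the lowest wildtype retina and KO3 the higher of KO1 and KO3.

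**Figure D3:**
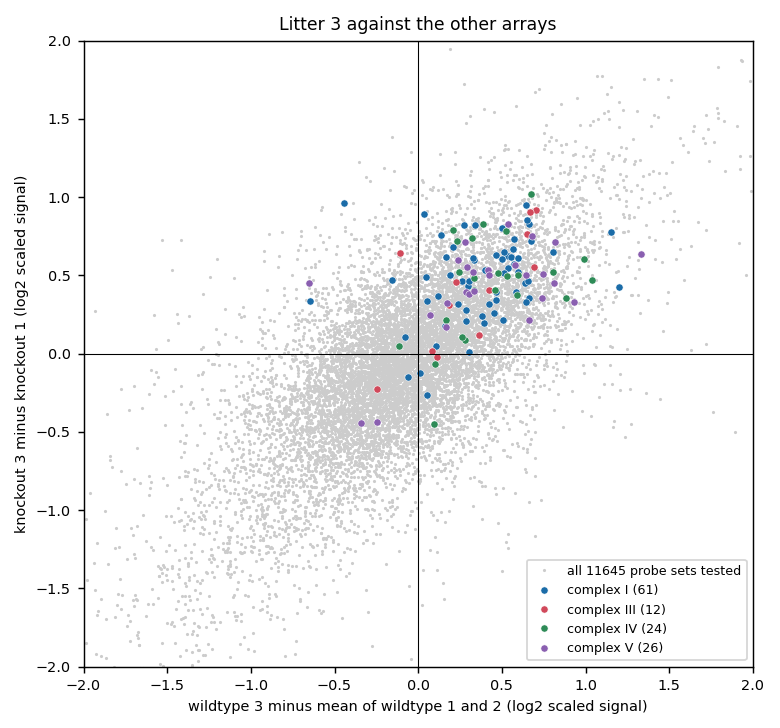
Difference of KO3 minus KO1 (vertical) against WT3 minus the mean of WT1 and WT2 (horizontal), both in log2 scaled signal; grey points are the 11645 probe sets tested, coloured points the 123 member probe sets by complex, and 160 grey points lie outside the axes. Most coloured points lie in the upper right quadrant, where both littermates of litter 3 are the higher.

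Some other groups were also often highest in litter 3 and some were not, and this depended on the scaling. Of the 1900 probe sets above the 90th percentile in each wildtype array 47.6% were highest in litter 3 in both genotypes, against 29.5% of all probe sets tested. Of 73 probe sets for cytosolic ribosomal proteins, a group chosen after its values were seen, 84.9% did so, as did 47.1% of 102 for mitochondrial ribosomal proteins and 26.1% of 23 for enzymes of the citric acid cycle. Quantile normalisation, which gives all arrays 1 distribution, left 86 of 123 members (69.9%) against 32.8% of all probe sets. It left 32.0% of the 1900 bright probe sets, 38.4% of the cytosolic ribosomal, 57.8% of the mitochondrial ribosomal and 13.0% of the citric acid cycle probe sets. The median differences of the members were then 0.26 for WT3 and 0.37 for KO3. The labels give no hybridisation or scan date, so litter and array handling cannot be told apart. The summed signal of the retina markers was 52848 in KO3 and 43906 in KO1, and 64266 in WT3 against 41946 and 46825 in WT1 and WT2. Of the 8 markers 5 were higher in WT3 and 5 in KO3, whereas Pax6, Rlbp1 and Tfap2b were lower in WT3 and Pax6, Rlbp1 and Crx lower in KO3. The summed signal of the pigment epithelium markers was 16321 in KO3 and 10124 in KO1. In WT3 it was 15130, against 13168 and 12991 in WT1 and WT2. Of these 8 pigment epithelium markers 1 was higher in WT3 and 5 in KO3. The part of these values in the result was not tested, and in bulk tissue more cells of a type and more RNA per cell cannot be told apart.

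The other genes of the pathway were mixed in litter 3. The one mitochondrially encoded transcript measured, ND5, a membrane subunit of complex I, ran the other way with 9915, 1001 and 7503 in the knockout retinas and 6830.3, 7938 and 4641 in the wildtype retinas. Complex II, which feeds electrons from succinate and is part of the citric acid cycle, had 2 of 4 subunit genes higher in WT3 and 3 of 4 higher in KO3. Sdha, its flavoprotein, had 3248, 1122 and 2553 in the knockout retinas and 3151, 3078 and 2254 in the wildtype retinas, lowest in litter 3 in both genotypes apart from KO2, and Sdhb, its iron-sulphur subunit, had 3529.6, 1321 and 4522 in the knockout retinas and 3625, 3319 and 4182 in the wildtype retinas, highest there. Of 32 assembly factors 19 were higher in WT3 and 18 in KO3. The carriers and pores that exchange ADP, ATP and phosphate were listed together with the mitochondrial creatine kinase Ckmt1. Of these genes 7 of 7 were higher in WT3 and 5 of 7 in KO3. Cycs, the somatic cytochrome c, had 5368, 2875 and 6893 in the knockout retinas and 6089, 5112 and 4998 in the wildtype retinas. Cyc1, the cytochrome c1 of complex III, had 3212, 3241 and 3262 in the knockout retinas and 3124, 3001 and 4035 in the wildtype retinas. Ndufab1, the acyl carrier protein of complex I, had 2533, 588 and 4067 in the knockout retinas and 3077, 2339 and 3516 in the wildtype retinas. Cyc1 and Ndufab1, both subunits whose symbols lie outside the rule, were highest in litter 3 in both genotypes apart from KO2.

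Among 14 nuclear regulators of respiratory genes 6 were higher in WT3 and 7 in KO3. Nrf1 had 206, 802 and 335 in the knockout retinas and 189.7, 196 and 274 in the wildtype retinas, so that WT3 was the highest wildtype retina and KO3 exceeded KO1. Gabpa, the DNA-binding part of GABP, had 810.0, 134 and 599.5 in the knockout retinas and 958, 918 and 924 in the wildtype retinas, and Yy1 had 1906, 5134 and 2157 in the knockout retinas and 2387, 2219 and 2179 in the wildtype retinas. Tfam, which packages and transcribes mitochondrial DNA, had 881, 7.79 and 855 in the knockout retinas and 859, 815 and 761 in the wildtype retinas. Ppargc1a, a coactivator known to induce respiratory genes, had 140.1, 245 and 121 in the knockout retinas and 212, 131 and 268 in the wildtype retinas, near the array median throughout. The regulators therefore showed no common order across the litters.

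The design asks whether loss of Nhlh2, a neuronal basic helix-loop-helix transcription factor, changed these transcripts. With limma's moderated test over the 6 arrays none of 11645 probe sets passed an adjusted p of 0.05 (percent called 0), and 11 had an unadjusted p below 0.05. None of the 123 members passed and none was below 0.05 unadjusted. The smallest adjusted p was 0.749. Without KO2 none of 11357 probe sets passed (percent called 0), with 82 below 0.05 unadjusted, and 0 of 121 members were among these. The members' median log2 difference, knockout minus wildtype, was 0.20, against -0.19 over all probe sets tested. Without KO2 it was 0.11, against -0.004 over all. With the littermate pair as a block and without KO2, WT2 also left the fit, as it had no littermate. The members' median was then 0.005, and that over all probe sets also 0.005.

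The littermate pairs did not move together. In pair 1, 41 of 123 members (33.3%) were higher in the knockout, against 51% of all probe sets, with a median log2 difference of -0.04. In pair 3, 75 of 123 (61.0%) were higher, against 50.5% of all, with a median of 0.06. These pairs differed in the direction in which the members leaned, and both medians were small beside the 0.39 and 0.48 by which litter 3 differed from other retinas of its own genotype. In pair 2, which contains KO2, 76 of 123 (61.8%) were higher, against 38.6% of all, with a median of 0.50, and 79 members (64.2%) differed by more than 1 on the log2 scale, against 60.2% of all probe sets. None of the members did so in pairs 1 and 3. The same sign in pairs 1 and 3 was found for 23 members upward (18.7%) and 30 downward (24.4%), against 24.8% and 23.3% of all probe sets.

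**Figure D4:**
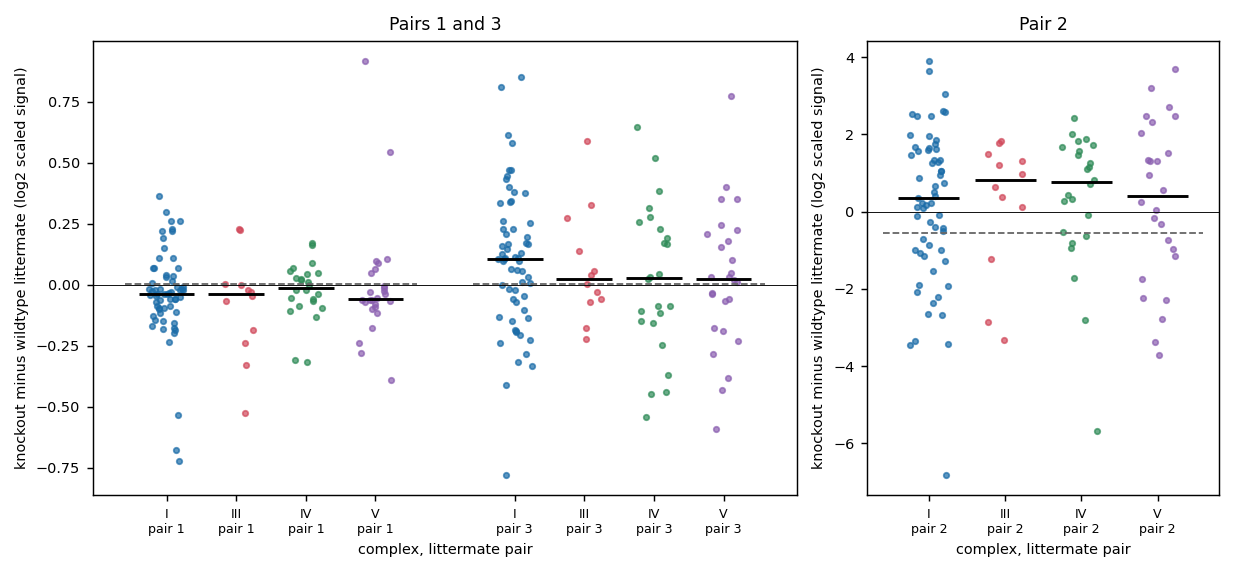
Log2 difference of scaled signal, knockout minus wildtype littermate, for 123 member probe sets by complex and pair; the solid bar is the median of the complex, the dashed line the median of all 11645 probe sets in that pair, and pair 2 has its own axis. Pairs 1 and 3 stay within 1 on the log2 scale with medians near 0, whereas pair 2 spreads over several units in both directions.

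The members with the smallest unadjusted p showed smaller log2 differences, or none, once KO2 was left out. Among the 5 upward members with the smallest unadjusted p, Ndufa13, an accessory subunit of complex I also known as GRIM-19, had 5140.1, 14953 and 7094 in KO1, KO2 and KO3, against 4637, 4145 and 5252 in WT1, WT2 and WT3. Its log2 difference was 0.81 ± 0.46 (SE, n = 3 each, adjusted p = 0.749 by limma) and 0.37 ± 0.23 without KO2 (adjusted p = 0.999 by limma). Its unadjusted p was 0.123 with KO2 and 0.144 without it. It was higher in the knockout in all 3 pairs, by 0.15, 1.85 and 0.43 in pairs 1, 2 and 3. A dim probe set for Ndufs8, an iron-sulphur subunit of complex I, differed by 0.83 ± 0.40, with 177, 405 and 201 in KO1, KO2 and KO3, against 144, 120.1 and 147 in WT1, WT2 and WT3. It exceeded the array median in the 3 knockout arrays and in none of the wildtype arrays, so it passed the filter on low signals only through the knockout, which fixed its direction. Without KO2 it did not pass the filter. Probe sets for Atp5a1, Uqcr10 and Cox5b differed by 1.39, 0.78 and 0.68, and by 0.60, 0.32 and 0.37 without KO2. With the littermate block and without KO2 and WT2, they differed by 0.47, 0.25 and 0.29, and Ndufa13 by 0.29.

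The Uqcr10 probe set had 379.9, 989 and 385 in KO1, KO2 and KO3, against 325, 277 and 318 in WT1, WT2 and WT3. On it the knockout was higher in each pair, with an unadjusted p by limma of 0.134 with KO2 and 0.123 without it. The brighter probe set given with complex III differed by -0.24, 0.64 and 0.59 in pairs 1, 2 and 3. Another dim one for Uqcr10 differed by -0.53, 1.51 and -0.06. The Cox5b probe set had 7685, 19189 and 12801 in KO1, KO2 and KO3, against 7339.6, 6959 and 8935 in WT1, WT2 and WT3. On it KO3 lay above and KO1 within the wildtype range. The brighter one given with complex IV differed by -0.02, 1.72 and -0.16 in pairs 1, 2 and 3. The other bright Cox5b probe sets differed by -0.31, -0.64 and 0.17, and by 0.05, 0.44 and 0.64. The dim Atp5a1 probe set had 284, 1819 and 443 in KO1, KO2 and KO3, against 150.3, 196 and 433 in WT1, WT2 and WT3, and its knockout and wildtype ranges overlap.

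Downward, the 5 members were probe sets for Ndufc2, Ndufs1, Ndufa7, Atp5b and Cox8a, with log2 differences of -1.29, -2.26, -1.29, -0.97 and -1.99 and adjusted p = 0.749 by limma for each. Without KO2 these were -0.18, -0.01, -0.03, -0.03 and 0.01. Ndufc2, an accessory subunit of complex I, had 3426, 386 and 4351 in KO1, KO2 and KO3, against 3933, 3917 and 5426 in WT1, WT2 and WT3. Ndufa7, another accessory subunit, had 3816, 331 and 5255 in KO1, KO2 and KO3, against 4342, 3577 and 6210.4 in WT1, WT2 and WT3. The Cox8a probe set had 2686, 48.7 and 3718 in KO1, KO2 and KO3, against 2401, 2542 and 5068 in WT1, WT2 and WT3. In all 3 the KO2 value was many times below the other arrays, and KO1 and KO3 lay near or within the wildtype range.

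In KO2 the members differed in both directions, about as often as probe sets in general. Of the 123 members 76 lay over 2-fold from the mean of KO1 and KO3, a share close to the 58.6% of all probe sets beyond this limit. Of the 76, 42 were higher and 34 lower, a split that was not counted over all probe sets. Probe sets for the same gene came apart. For 35 genes with at least 2 probe sets above the array median in all 3 wildtype arrays the median ratio of the highest to the lowest was 5.37 in KO2 and 1.77 in the wildtype means. The 2 probe sets for Uqcrb differed by a ratio of 59.4 in KO2 and of 5.10 in the wildtype means, and those for Cox6a1 by 12.3 and 2.87. A high or low value in KO2 therefore depended on the probe set read, and the part of RNA quality in it was not tested.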

How the data were processed

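Total RNA from the retinas of 6 mice at P4, 3 Nhlh2 knockout and 3 wildtype, was hybridised to 1 array each. The authors made the deposited intensity values with MAS 5.0, which corrects for background and mismatch signal; its scaling setting is not given in the sources used here. Each array was scaled to a 2% trimmed mean of 500 and log2(signal + 1) was taken. Probe sets were named through a platform annotation table: 20380 carried 1 symbol, 691 carried several, 1606 (51 controls among them) were not listed, and 13 controls with a symbol were left out. Probe sets above the array median in at least 3 of 6 arrays entered limma 3.58.1 (R 4.3.3) without a littermate block, two-sided, with Benjamini-Hochberg adjustment over all of them at 0.05. The fit was tested on simulated data with the same spread in every array and no array apart like KO2. That test therefore does not show what the fit can detect in these data. Levels used 1 probe set per gene, the one with the highest mean log2 signal over the 6 arrays.

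Same-numbered mice were littermates by the series design. Their deviations from the group means correlated by 0.29, -0.15 and 0.17 in pairs 1, 2 and 3. Among arrays that were not littermates, KO1 with WT2 correlated by 0.38 and KO2 with WT3 by 0.16. The knockout mean included KO2, so these correlations do not show whether littermates were alike. Values in every array were given for isoform families, for the highest and lowest gene of each complex, for catalytic subunits, for the members with the widest wildtype spread and for the 5 members with the smallest p in each direction; Uqcrh, Atp5j, Cox7c, Ndufs5, the bright variable probe sets and the ribosomal, mitochondrial ribosomal and citric acid cycle groups were picked after their values were seen. Members and lists were chosen with earlier results of these data known. Alternatives were another scaling, another constant, other filters, the littermate block and leaving out each array.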

Additional observations from a re-analysis of the deposited data

How the results depend on the processing

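No member was called by limma under any alternative run, with 0 to 2 members below an unadjusted p of 0.05, and the members' median log2 difference, knockout minus wildtype, was above 0 under all of them but one. On signals as deposited, which differ in scale between arrays, it was -1.003, and Ndufs8, Ndufa13, Uqcr10 and Cox5b turned to -0.37, -0.41, -0.43 and -0.54. With the replicate block it was 0.20 (0.005 with the block and without KO2 and its littermate WT2), and no call changed. Leaving out 1 array gave medians of 0.10 to 0.35, the lowest without KO3 (0.098) and the highest without KO1, and 0 calls each time. The downward values of Ndufs1 and Cox8a rested on KO2. Without KO2, Ndufs1 was 0.012 with the block, which then also left out WT2. Cox8a without KO2 was 0.0097 as scaled, 0.012 under 75th percentile scaling and 0.016 under quantile normalisation, with leave-one-out values of -3.10 to 0.0097.

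As scaled, the median wildtype signals of complexes I, III, IV and V were 3032, 2841, 3514 and 5673. The value for complex IV is over all 17 of its genes, tissue isoforms included. On signals as deposited these medians were 1354, 1264, 1547 and 2484. Over probe sets with a plain _at suffix those of complexes I, IV and V were 2324, 246 and 4701 over 23, 14 and 13 genes (the cause was not tested). In complex IV the only probe sets for the tissue isoforms Cox4i2, Cox6a2, Cox6b2 and Cox8c had this suffix, whereas the only one for Cox4i1 had not. Of such probe sets 47 of 66 exceeded the median in all 3 wildtype arrays. Leaving out 1 wildtype array gave 2831 to 3110 for complex I, 2584 to 2934 for complex III, 3052 to 3781 for complex IV and 5119 to 6048 for complex V, and 120 to 121 probe sets above the median. Choosing the probe set of a gene over the 5 arrays other than KO2, an alternative added after the data were seen, changed it for 5 genes (Atp5a1, Ndufb5, Ndufb9, Ndufs8 and Ndufv2) and gave 3199, 2841, 3514 and 5800.4 for complexes I, III, IV and V, with 69 genes above the median and 65 above the 90th percentile as before. The litter 3 alternatives were also chosen after the data were seen. They gave 82.9% to 92.8% of members higher in WT3 and 90.2% to 94.3% higher in KO3. With 3 arrays per group, and KO2 apart from the rest, small differences were not detectable, and dim probe sets near the background have no reliable order.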
